A study of Mus musculus with 27 samples.

Results

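The 3 nucleoplasm and 3 cytoplasm libraries of cultured mouse cortical neurons (mCtx) are described here, 6 of the 27 libraries of the series. They were taken by their labels, and the mitochondrial genes were set apart before the libraries were scaled. Nucleoplasm names the fraction meant to hold the soluble RNA of the nucleus, and cytoplasm the fraction meant to hold the RNA outside it. Both are names of fractions, and mitochondrial transcripts were counted in each. A label therefore does not fix where an RNA lay in the cell. The study split 3 mouse cell types into chromatin, nucleoplasm and cytoplasm, and each of the 9 groups has 3 biological replicates: mESC, the E14 line of embryonic stem cells, mNPC, which are a line of neural progenitors, and mCtx, which are primary neurons kept in culture for 5 days. No group carries a genetic change or a drug treatment in the labels, and mESC and mNPC stand for 1 line each. The RNA was over 200 nt long, was depleted of ribosomal RNA and was sequenced as stranded libraries with 100 bp paired reads. Nothing states whether the replicates came from separate animals, so p-values measure the spread between these libraries.

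An mRNA is copied from its gene as a long precursor, loses its introns and gains a poly(A) tail in the nucleus, and then leaves through the nuclear pores. Some transcripts stay behind: long noncoding RNAs such as Malat1 live in the nucleus, and mRNAs with introns that are slow to be removed are held there. Neurons also express many of the longest genes of the genome, among them genes of synaptic adhesion, ion channels and receptors. Ribosomal protein mRNAs are short, abundant and translated in the cytoplasm.

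The 6 libraries held 11249862 to 15896164 counts, within the range of all 27 (11249862 to 19871198). The deposited gene length equals the whole span of each gene for all 37332 genes, so the counts take in introns, whereas the deposited TPM are relative levels per transcript length. Levels by counts are given as CPM, relative to the counts of nuclear genes of the library after scaling, and include the reads of introns. A fold change compares a gene's share of 1 fraction with its share of the other, so less RNA per cell and fewer cells cannot be told apart, and nothing here gives molecules per cell. The neuron label was checked against marker genes. The 12 neuron markers summed to 15820 to 16670 CPM in nucleoplasm and 7862 to 8487 CPM in cytoplasm. The 10 astrocyte markers summed to 747.9 to 833.4 CPM in nucleoplasm and 611.4 to 665.1 CPM in cytoplasm, and the 10 radial glia and progenitor markers to 607.5 to 633.0 CPM in nucleoplasm and 372.6 to 399.5 CPM in cytoplasm. Sums were smaller for oligodendrocyte lineage (69.31 to 78.54 CPM in nucleoplasm, 144.4 to 183.4 CPM in cytoplasm), microglia (30.26 to 34.47 CPM in nucleoplasm, 49.13 to 61.9 CPM in cytoplasm), endothelial cells and pericytes (24.18 to 28.82 CPM in nucleoplasm, 7.392 to 8.597 CPM in cytoplasm) and meningeal fibroblasts (9.626 to 12.83 CPM in nucleoplasm, 5.895 to 6.868 CPM in cytoplasm). Red blood cell markers summed to at most 0.458 CPM in both fractions, with 4 of 8 at 0 counts in all 6 libraries.

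Nucleoplasm and cytoplasm differed over much of the genome. Of 18192 genes tested, edgeR called 10634 at an adjusted p of 0.05, which is 58.5% (5590 or 30.7% higher and 5044 or 27.7% lower in nucleoplasm). The libraries of the fractions did not overlap for 71.4% of the genes. Of the called genes, 3539 were at least 2-fold higher and 2636 at least 2-fold lower in nucleoplasm (log2 of 1 or more), and 553 were higher and 162 lower by a log2 of 3 or more. The split depends on what is held equal. Scaling by total counts moved the median gene by -0.34 and gave 4123 higher and 6875 lower genes. With log2(TPM + 1) in limma, 72.6% of 16759 genes were called, 11350 (67.7%) higher and 822 (4.9%) lower, and the median gene moved by 0.83. After rescaling TPM by the median ratio it moved by 0.26, and 8259 were higher and 3288 lower. The direction of a single gene by counts is therefore given relative to the median gene. The TPM printed for single genes are unscaled. On that scale the median log2 difference was 0.72 among genes in both tests, so a higher TPM in nucleoplasm is not relative to the median gene.

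Long genes took a larger share of the nucleoplasm libraries. Genes spanning 100 kb or more took 42.7, 45.3 and 42.0% of the counts of nuclear genes in the nucleoplasm libraries, and 18, 17.2 and 18.7% in the cytoplasm libraries. Genes of 300 kb or more took 20.4% ± 1.47 of the counts in nucleoplasm and 5.47% ± 0.668 in cytoplasm (SD, n = 3 each). Genes under 10 kb took 11.1% ± 0.539 in nucleoplasm and 30.1% ± 0.624 in cytoplasm. None of these shares overlapped between the fractions, and the exact two-sided permutation p was 0.1 for each, the smallest that 3 against 3 libraries can give. In the chromatin fraction of the same cells, genes of 100 kb or more took 66.7% ± 1.27 (SD, n = 3).

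**Figure D1:**
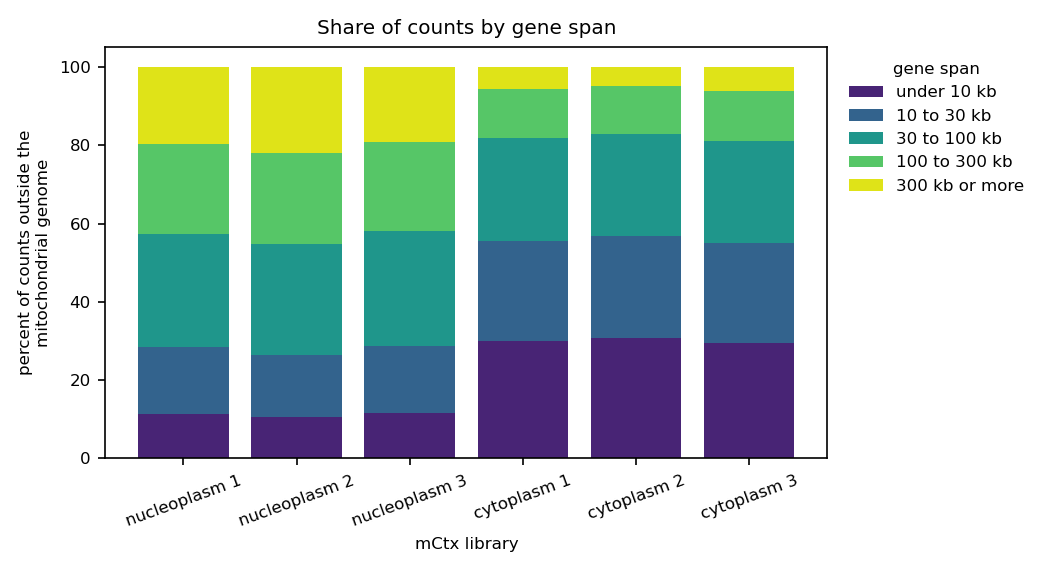
Percent of the counts of nuclear genes (vertical axis) taken by 5 classes of gene span in each of the 6 mCtx libraries (horizontal axis), nucleoplasm on the left. Genes of 300 kb or more take 19.3 to 22.1% of the nucleoplasm libraries and 4.83 to 6.16% of the cytoplasm libraries.

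Gene span and RNA length were both ordered with the fraction. Among protein-coding genes with several exons, the median log2 fold change by counts was -0.84, -0.25, 0.39, 1.16 and 2.39 from spans under 10 kb to spans of 300 kb or more. In the longest class, 483 of 505 genes were higher and 3 lower in nucleoplasm, and in the shortest class 164 of 3412 were higher and 1947 lower. Across 14914 genes, which are not independent replicates, span and log2 fold change had a Spearman rho of 0.62. Since counts include introns, the 11068 of these genes that were also tested by TPM were set against the length of their longest annotated transcript. Rescaled TPM, which are values per transcript, were used for this. The median log2 difference was then -1.01 for transcripts under 1 kb (14 higher and 299 lower of 367) and 0.95 for those of 8 kb or more (654 higher and 22 lower of 779). The order held among genes spanning under 30 kb, with medians of -1.03, -0.47, -0.03, 0.24 and 0.54 over the 5 length classes. Across genes, transcript length had a rho of 0.57 with the rescaled TPM difference (n = 11068), against 0.49 for span, and the lengths themselves had a rho of 0.57 with each other.

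**Figure D2:**
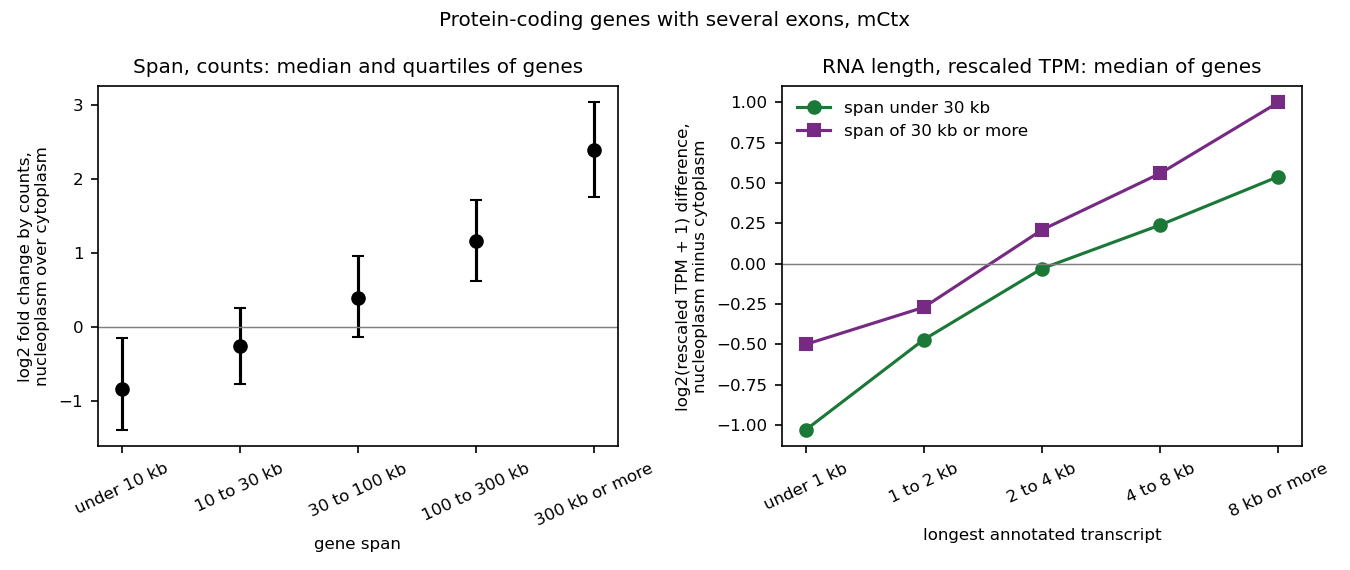
Left, log2 fold change by counts (nucleoplasm over cytoplasm) against gene span, as the median (point) and quartiles (bars) of protein-coding genes with several exons. Right, the median log2(rescaled TPM + 1) difference against the longest annotated transcript, for spans of 30 kb or more and under 30 kb. The medians rise from -0.84 to 2.39 with span and, per transcript, from -1.03 to 0.54 among genes spanning under 30 kb.

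Most genes of synaptic adhesion, receptors and ion channels were higher in nucleoplasm. Of 54 synaptic and axonal adhesion genes, 48 were higher and 1 lower (median log2 fold change 2.36, against 0.00 over all genes). Of 24 glutamate receptor genes, 19 were higher and none lower (median 2.11), and of 43 voltage-gated channel genes, 32 were higher and 4 lower (median 1.58). The medians by rescaled TPM were smaller, at 1.09, 1.04 and 0.90. Of 14 GABA receptor genes, 9 were higher and none lower (median 0.73), while 2 were lower with total-count scaling or the replicate block.

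Tenm2, a teneurin and adhesion receptor, had 3513, 3795 and 3256 CPM in nucleoplasm against 193.4, 205.6 and 218.0 CPM in cytoplasm (log2 fold change 4.10 ± 0.31 SE, edgeR adjusted p = 1.64e-11). The libraries of the fractions were far apart, and Tenm2 was also higher per transcript, with a mean of 70.6 TPM in nucleoplasm and 5.64 TPM in cytoplasm. Opcml and Ncam1, adhesion proteins of the immunoglobulin superfamily, were higher by log2 3.20 and 1.58.

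Kcnip4, a calcium sensor that binds Kv4 potassium channels, spans 1135403 bases (chr5:48389502-49524904, mm10) and had 2075, 2550 and 1928 CPM in nucleoplasm and 61.2, 60.0 and 72.3 CPM in cytoplasm. Its level in chromatin was higher again, at 5754 CPM on average. The log2 fold change was 5.08 ± 0.22 (SE; in edgeR, adjusted p = 2.03e-15). Per transcript the picture was smaller, with a mean of 2.88 TPM in nucleoplasm and 0.85 TPM in cytoplasm. Nrg3, a neuregulin ligand of ErbB4, was alike: 4853, 5768 and 4544 CPM in nucleoplasm, 196.9, 196.9 and 233.4 CPM in cytoplasm, and means of 13.8 TPM in nucleoplasm and 5.68 TPM in cytoplasm. The chromatin mean of Nrg3 was 11940 CPM, so that its level was highest in chromatin, lower in nucleoplasm and lowest in cytoplasm. For both genes the fold per transcript was the smaller value.

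Most of the named ion channel and receptor genes were higher in nucleoplasm. The potassium channel genes Kcnq5 and Kcnh7 were higher in nucleoplasm by log2 3.59 and 3.77, and Cacna2d1, an auxiliary subunit of calcium channels, by 2.69. Of the glutamate receptor genes, Grik2 (a kainate receptor subunit) was higher by 3.42, Grin2b (an NMDA receptor subunit) by 2.39, Gria2 (an AMPA receptor subunit) by 2.34 and Grm5 (a metabotropic receptor) by 2.26. Gria2 had 1518, 1660 and 1606 CPM in nucleoplasm and 328.4, 297.2 and 319.7 CPM in cytoplasm, and means of 195 TPM in nucleoplasm and 23.4 TPM in cytoplasm. Gabbr2 and Gabbr1, the subunits of the GABA-B receptor, did not pass the test, at 0.29 (edgeR adjusted p = 0.297) and -0.35 (edgeR adjusted p = 0.0553, and 0.0219 with the replicate block).

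Synaptic scaffold and release genes were more mixed. Of 32 postsynaptic scaffold and dendritic mRNA genes, 19 were higher and 4 lower (median 0.66), though 9 were lower with total-count scaling. Dlg2, a scaffold of the postsynaptic density, was higher by 3.67. Of 32 synaptic vesicle genes, 15 were higher and 9 lower, with a median of 0.34 that became -0.01 with total-count scaling. Erc2 and Ppfia2, of the presynaptic active zone, were higher by 2.59 and 2.36, and Syt1, the calcium sensor of vesicle release, by 1.59. Syt4, a synaptotagmin whose gene spans only 9608 bases, was lower by counts: 603.8, 575.3 and 567.4 CPM in nucleoplasm against 865.4, 734.8 and 762.2 CPM in cytoplasm (log2 fold change -0.44 ± 0.16 SE, edgeR adjusted p = 0.0238). That call reversed with log2(TPM + 1), at 0.68, and was lost when nucleoplasm library 2 or 3, or cytoplasm library 1, was left out (-0.43, -0.42 and -0.36).

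Among regulators of neuronal RNA, 26 of 37 neural RNA-binding protein genes were higher and 3 lower (median 1.02). Celf2 and Rbfox1, RNA-binding proteins that regulate splicing in neurons, were higher by 3.15 and 3.20. Rbfox1 differed between the scales, at 28.4 TPM in nucleoplasm and 17.4 TPM in cytoplasm on average and a rescaled log2 difference of 0.0047 (limma adjusted p = 0.969). Rbfox2 had 807.8, 834.5 and 814.7 CPM in nucleoplasm and 637.9, 711.9 and 657.8 CPM in cytoplasm, which did not overlap but did not pass the test (log2 fold change 0.29, edgeR adjusted p = 0.103). The transcription regulators Auts2 and Myt1l were higher by 3.56 and 2.33. Of 33 transcription factor genes of cortical projection neurons, 16 were higher and 7 lower, with a median of 0.30 that turned to -0.05 with total-count scaling. Of 23 clustered protocadherin genes, 19 were higher and none lower (median 0.93), among them Pcdhgc4 by 1.26 and Pcdhb19 by 1.76. Genes of the gamma cluster share exons, so counts of its single members are uncertain.

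Transcripts annotated inside introns were mostly higher in nucleoplasm. Of 58 sense intronic genes, 49 were higher and none lower (median 3.13). Gm10855 had 12.9, 18.5 and 14.7 CPM in nucleoplasm and 0.33, 0.51 and 0.16 CPM in cytoplasm (log2 fold change 5.44 ± 0.32 SE, edgeR adjusted p = 1.41e-11), and Gm14093 and Gm15338 were higher by 4.90 and 4.64. These genes lie in the introns of others on the same strand, so their reads and those of the host intron cannot be told apart. Sgcz, Gm15155 and Rtl4, all long by span, were higher by 4.84, 4.78 and 4.76, and all 3 averaged at most 1.32 TPM in nucleoplasm.

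Map1b and other cytoskeletal and transport mRNAs were also higher in nucleoplasm. Map1b (chr13:99421464-99516602), a microtubule-associated protein of axons with a longest transcript of 11808 bases, had 10250, 10160 and 10600 CPM in nucleoplasm and 1322, 1201 and 1342 CPM in cytoplasm. The log2 fold change was 3.00 ± 0.22 (SE; in edgeR, adjusted p = 8.87e-12), and the chromatin mean of 2260 CPM was below that of nucleoplasm. Per transcript it averaged 689 TPM in nucleoplasm and 38.0 TPM in cytoplasm. Nucleoplasm held the highest of the 3 fractions for Map1b, unlike Kcnip4 and Nrg3, which were highest in chromatin.

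Kif1a, a kinesin motor that carries synaptic vesicle precursors, had 3004, 2761 and 3092 CPM in nucleoplasm and 322.2, 394.2 and 358.9 CPM in cytoplasm (log2 fold change 3.04 ± 0.43 SE, edgeR adjusted p = 1.1e-06), and averaged 306 TPM in nucleoplasm and 15.4 TPM in cytoplasm. Cltc, the clathrin heavy chain, was higher by 2.73, Sptbn1 and Sptan1, the spectrins under the membrane, by 2.28 and 1.86, and Map2, a dendritic microtubule protein, by 1.64. Each was higher by rescaled TPM as well, by 3.13 for Cltc, 2.65 for Sptbn1, 2.34 for Sptan1 and 1.82 for Map2. Over all 38 tubulin, actin and microtubule-associated genes, 13 were higher and 14 lower, with a median of -0.13 that was 0.26 by rescaled TPM. Actb, cytoplasmic beta-actin, was lower in nucleoplasm by 1.10 on the log2 scale. It had 2551, 2174 and 2562 CPM in nucleoplasm and 5221, 5231 and 5142 CPM in cytoplasm, and its sign turned with unscaled log2(TPM + 1), to 0.16. Tuba1a, the main neuronal alpha-tubulin, overlapped between the fractions (6002, 5454 and 6276 CPM in nucleoplasm, 5048, 5757 and 5903 CPM in cytoplasm, edgeR adjusted p = 0.78).

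mRNAs for splicing, nuclear pores and export were more often higher than lower in nucleoplasm. Of 38 splicing-factor and detained-intron genes, 25 were higher and 6 lower (median 0.55, and 0.98 by rescaled TPM), with 11 lower under total-count scaling. Srrm2 and Son, large proteins of nuclear speckles, were higher by 1.85 and 1.5. Clk1 and Ogt, whose mRNAs are known to be detained in the nucleus with unspliced introns, were higher by 1.51 and 1.81. Ogt had 316.2, 330.9 and 312.6 CPM in nucleoplasm and 86.4, 91.7 and 95.4 CPM in cytoplasm. Of 41 nuclear pore and mRNA export genes, 23 were higher and 14 lower (median 0.40), and 14 were higher with total-count scaling. Tpr, of the nuclear basket, was higher by 2.79, Ranbp2, of the cytoplasmic filaments of the pore, by 2.55, and the exportin Xpo1 by 0.97. Of 28 hnRNP genes, 11 were higher and 11 lower, with a median of 0.14 that was -0.21 with total-count scaling, and 7 were higher without cytoplasm library 2. Hnrnpu, a nuclear matrix protein, was higher by 0.78. Snrnp200, a helicase of the spliceosome, was higher by 1.89. Mki67, a proliferation protein, was higher by 3.04, while of the 10 radial glia and progenitor markers that include it, 4 were higher and 6 lower (median -0.70), with 2 lower by rescaled TPM.

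Most short housekeeping mRNAs were lower in nucleoplasm. Of 85 cytosolic ribosomal protein genes, 82 were lower and none higher (median -2.24, and -1.75 by rescaled TPM). Together they held 8240 to 9442 CPM of the nucleoplasm libraries and 38600 to 41810 CPM of the cytoplasm libraries. Rpsa had 387.4, 358.7 and 435.9 CPM in nucleoplasm and 1992, 2144 and 1925 CPM in cytoplasm (log2 fold change -2.36 ± 0.17 SE, edgeR adjusted p = 7.9e-12), and Rplp0 fell by 2.24. Of 76 mitochondrial ribosomal protein genes, 68 were lower and 5 higher (median -1.19, and -0.78 by rescaled TPM), with Mrpl30 down by 2.11. By unscaled log2(TPM + 1), 12 of the 76 were lower and 6 higher. Mrps6 was higher by counts, by 0.64, but lower by rescaled TPM, at -0.98. Of 80 nuclear genes of oxidative phosphorylation, 65 were lower and 5 higher (median -1.27, and -0.89 by rescaled TPM). By unscaled log2(TPM + 1), 24 of 77 were lower and 16 higher. Atp5o, a subunit of ATP synthase, fell by 1.3, and Atp5a1 did not pass the test, at 0.23 (edgeR adjusted p = 0.0959). The annotated span of Atp5o is 247290 bases, 90.1% of it overlapped by genes of the other strand, and the strand setting of the counting is not stated.

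Other pathways of the cytosol moved less. Of 37 translation factor genes, 25 were lower and 5 higher (median -0.57), and of 38 proteasome genes, 26 were lower and 2 higher (median -0.71). The medians by rescaled TPM were -0.40 and -0.44. By unscaled log2(TPM + 1), 15 of 37 translation factor genes were higher and 3 lower, and 12 of 35 proteasome genes were higher and 2 lower. Psmb6, a catalytic subunit of the proteasome, fell by 1.69, while Psmd1, a large regulatory subunit, was higher by 0.58 (edgeR adjusted p = 0.00167). The 16 glycolysis genes were divided, with 4 higher and 5 lower (2 and 9 with total-count scaling) and a median of -0.30 that was 0.07 by rescaled TPM. Gapdh fell by 1.36, and Pfkp and Hk1, the platelet-type phosphofructokinase and hexokinase 1, were higher by 1.85 and 1.23. Of 28 immediate early genes, 10 were lower and 1 higher, where 27.7% of all genes were lower. Their median was -0.67 by counts and -0.03 by rescaled TPM, and by unscaled log2(TPM + 1) 6 of 18 were higher and 2 lower. Of 12 interneuron markers, 3 were higher and 6 lower, with 1 higher when nucleoplasm library 1 or 3 or cytoplasm library 2 or 3 was left out, or with total-count scaling. Of 8 oligodendrocyte lineage markers tested, 3 were higher and 3 lower. Sst, a neuropeptide of interneurons, had 22.6, 17.6 and 22.4 CPM in nucleoplasm and 112.9, 100.6 and 107.2 CPM in cytoplasm, and Olig1, a factor of the oligodendrocyte lineage, fell by 2.11.

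Replication-dependent histone genes, whose mRNAs are short and lack poly(A) tails, were the lowest of the mRNA lists by median. Of 57 tested, 51 were lower and none higher (median -3.14). Hist1h4c had 22.4, 16.6 and 16.4 CPM in nucleoplasm and 200.2, 260.1 and 224.7 CPM in cytoplasm (log2 fold change -3.63 ± 0.30 SE, edgeR adjusted p = 7.44e-11). Hist1h4f fell by 4.01 and Hist1h2ad by 4.53. These genes have near-identical copies, so the share of each copy is uncertain.

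**Figure D3:**
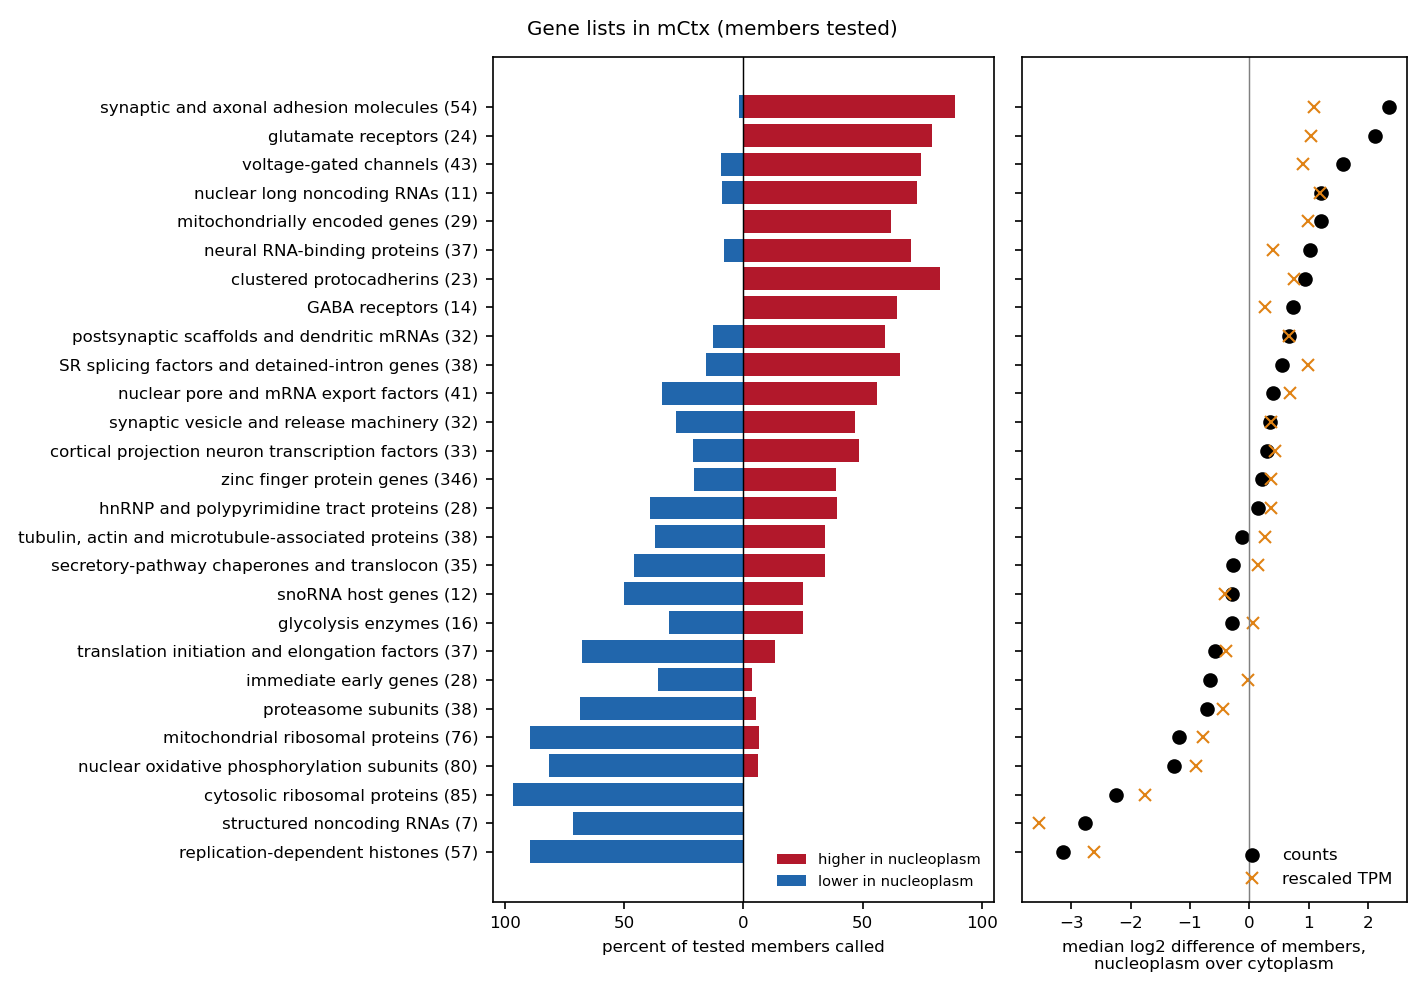
Left, percent of the tested members of 27 gene lists called higher (red) or lower (blue) in mCtx nucleoplasm than in cytoplasm by counts, with the number tested in parentheses. Right, the median log2 difference of the members by counts (circles) and by rescaled TPM (crosses). The medians by counts run from 2.36 for adhesion molecules to -3.14 for histones, and those of secretory-pathway, glycolysis and tubulin genes change sign between the scales.

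Secretory-pathway mRNAs, which are translated at the endoplasmic reticulum, were divided. Of 35 tested, 12 were higher and 16 lower, with a median of -0.28 that was 0.15 by rescaled TPM. Hsp90b1 and Hspa5, the abundant chaperones of the reticulum, were higher by 2.07 and 1.13, with 607.7, 601.5 and 653.6 CPM in nucleoplasm and 168.2, 124.4 and 151.3 CPM in cytoplasm for Hsp90b1. The lectin chaperone Canx was higher by 0.66, and its relative Calr did not pass the test (0.14, edgeR adjusted p = 0.492).

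Nuclear long noncoding RNAs were mostly higher in nucleoplasm, with 8 of 11 higher and 1 lower (median 1.21), or 5 higher with total-count scaling. Malat1 (chr19:5795690-5802671), the speckle RNA, had 9153, 9432 and 9919 CPM in nucleoplasm and 7049, 5147 and 6428 CPM in cytoplasm. The fractions did not overlap, but the log2 fold change was only 0.61 ± 0.26 (SE, edgeR adjusted p = 0.0478), and it missed the threshold with total-count scaling (0.27) and when any 1 library other than cytoplasm library 1 was left out (0.49 to 0.64). Per transcript it averaged 1983 TPM in nucleoplasm and 534 TPM in cytoplasm, and the chromatin mean was 9293 CPM. Meg3, an imprinted RNA, was higher by 1.59, and Neat1, the scaffold of paraspeckles, had only 12.1 to 13.0 CPM in nucleoplasm and 4.32 to 6.63 CPM in cytoplasm (log2 fold change 1.21, edgeR adjusted p = 0.00803). Pantr1 was the 1 lower gene, at -0.81. Xist, which coats the inactive X chromosome, had 24.2, 116.4 and 200.5 CPM in nucleoplasm and 7.33, 13.8 and 33.1 CPM in cytoplasm. Its libraries overlapped, and within each number the nucleoplasm value was the higher one (log2 fold change 2.67 ± 0.61 SE, edgeR adjusted p = 0.000608, and 1.97 to 3.42 when 1 library was left out). Y-linked genes ran the other way, with the lowest level in library 3 of both fractions.

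Small nucleolar RNAs (snoRNAs), which guide the modification of ribosomal RNA in the nucleolus and are mostly cut from the introns of host genes, were divided. Of 316 tested, 93 were higher and 32 lower (median 0.59), or 29.4% higher, where 30.7% of all genes were. Of the 241 that lie inside a host gene on its strand, 61 were higher and 21 lower, with a median of 0.44 against -0.23 for the hosts, a difference that was not tested. Reads of these snoRNAs cannot be told apart from reads of the host introns, and the host counts pool exons and introns. The sequences of 3 box H/ACA snoRNAs named below are shown because such RNAs end in a short tail after the box for which they are named, and the capitals mark the last ACA of each. They are from GENCODE vM21 on mm10, at chr7:110046364-110046547 on the plus strand for Snora23, and at chr4:132352322-132352526 and chr4:132352775-132352979 on the minus strand for Snora73b and Snora73a.
Snora23: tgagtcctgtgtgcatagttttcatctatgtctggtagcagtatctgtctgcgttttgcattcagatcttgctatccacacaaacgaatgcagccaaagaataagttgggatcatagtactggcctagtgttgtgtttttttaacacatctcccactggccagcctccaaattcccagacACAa
Snora73b: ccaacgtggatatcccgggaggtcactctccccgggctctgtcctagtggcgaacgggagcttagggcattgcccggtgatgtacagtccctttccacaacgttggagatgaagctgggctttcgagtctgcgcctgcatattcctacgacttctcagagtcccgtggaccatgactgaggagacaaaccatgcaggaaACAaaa
Snora73a: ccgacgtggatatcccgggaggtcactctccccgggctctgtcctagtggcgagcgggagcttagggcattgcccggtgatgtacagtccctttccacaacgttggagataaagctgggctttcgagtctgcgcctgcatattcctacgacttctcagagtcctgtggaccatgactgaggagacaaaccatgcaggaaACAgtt
The ACA is followed by 1 base in Snora23 and by 3 bases in both copies of Snora73, which differ at 7 of 205 bases (96.6% identity). Over all 1469 annotated snoRNA genes, 48.3% hold an ACA on their own strand within the last 12 bases.

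Snora23 had 58.6, 69.4 and 53.5 CPM in nucleoplasm and 3.79, 3.99 and 2.95 CPM in cytoplasm. Its log2 fold change was 4.07 ± 0.30 (SE; in edgeR, adjusted p = 9.45e-12), against 1.60 for its host, the importin gene Ipo7. Snora81 had 71.0, 91.3 and 77.7 CPM in nucleoplasm and 5.1, 4.5 and 4.09 CPM in cytoplasm (log2 fold change 4.12), against 0.09 for its host, the translation factor gene Eif4a2. Snora23 and Snora81 have 184 and 178 bases, while the RNA was over 200 nt long, so their reads may be of longer RNAs. Snora73b and Snora73a were higher by 3.64 and 3.32, and their host Snhg3 by 2.79. Snhg3 itself was lower by rescaled TPM, at -0.99, and its near-identical snoRNA copies may share reads. Gas5, another snoRNA host, did not pass the test (-0.15, edgeR adjusted p = 0.239), and of the 12 host genes listed, 3 were higher and 6 lower.

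Structured noncoding RNAs, most of them made by RNA polymerase III, went the other way. Of the 10 listed genes in the table, 7 were tested, of which 5 were lower and none higher (median -2.76), and 3 had 0 counts in all 6 libraries. The 10 took 0.364% ± 0.0176 of the counts of nuclear genes in nucleoplasm and 5.51% ± 0.348 in cytoplasm (SD, n = 3 each). Rn7sk (chr9:78175303-78175633), the 7SK RNA that holds the transcription factor P-TEFb in the nucleus, had 2586, 2613 and 2824 CPM in nucleoplasm and 32760, 33950 and 28320 CPM in cytoplasm. Its log2 fold change was -3.57 ± 0.29 (SE; in edgeR, adjusted p = 5.82e-11), and its chromatin mean was 1378 CPM. Rpph1, the RNA of ribonuclease P, a nuclear enzyme that trims transfer RNA, fell by 4.41, with 614.2, 582.9 and 662.9 CPM in nucleoplasm and 13250, 13200 and 13020 CPM in cytoplasm. Rmrp, the RNA of the related ribonuclease MRP, fell by 2.52, and Vaultrc5, of the cytoplasmic vault particle, fell by 5.17. The known nuclear RNAs 7SK and Rpph1 were thus highest in the fraction labelled cytoplasm, while Malat1, Meg3 and Neat1 were higher in nucleoplasm. Small nuclear RNA genes were divided by place: 30 of 56 inside a host gene were higher and 5 lower (median 1.99), and of 32 outside one, 4 were higher and 19 lower (median -1.65). Reads of those inside a host cannot be told apart from reads of its introns, and the host median was 0.68. Several were near the floor, such as Gm24552 in Dlg2, with means of 1.04 CPM in nucleoplasm and 0 CPM in cytoplasm.

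Mitochondrial transcripts were present in both fractions. The 37 genes of the mitochondrial genome took 2.01, 2.06 and 2.30% of all counts in nucleoplasm and 1.05, 0.916 and 1.61% in cytoplasm. The shares did not overlap (exact permutation p = 0.1, two-sided, the smallest possible). Relative to nuclear genes, 18 of 29 tested mitochondrial genes were higher in nucleoplasm and none lower (median 1.20), though 1 was lower without cytoplasm library 2. mt-Co1, a subunit of cytochrome oxidase, had 9222, 9350 and 10410 CPM in nucleoplasm and 3566, 4031 and 4525 CPM in cytoplasm (log2 fold change 1.26 ± 0.25 SE, edgeR adjusted p = 0.00012). mt-Nd1 and mt-Cytb, subunits of other respiratory complexes, were higher by 1.74 and 2.00. The nuclear genes of the same respiratory complexes were mostly lower in nucleoplasm, as given above. Of 22 mitochondrial transfer RNA genes, 17 were tested, 11 of them higher. By TPM, 14 of the 29 mitochondrial genes were higher and 2 lower, and mt-Tm, higher by 1.51 on the count scale, had 38.7, 37.6 and 25.4 TPM in nucleoplasm and 246.2, 235.9 and 196.5 TPM in cytoplasm.

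The mitochondrial ribosomal RNAs varied in cytoplasm. mt-Rnr1, of the small subunit, had 617.7, 565.3 and 715.5 CPM in nucleoplasm and 669.6, 210.2 and 2002 CPM in cytoplasm, a spread of 9.53 times among the cytoplasm libraries. It did not pass the test (-0.60, edgeR adjusted p = 0.327) and did so without cytoplasm library 2 (-1.08). By TPM, mt-Rnr1 also overlapped, with 596.2, 475.3 and 586.0 TPM in nucleoplasm and 256.6, 86.76 and 750.0 TPM in cytoplasm, and only cytoplasm library 3 was above nucleoplasm. mt-Rnr2, of the large subunit, did not pass either (0.86, edgeR adjusted p = 0.0783), and did so without cytoplasm library 3 (1.34). In a stretch of the mitochondrial genome from base 6870 to 10173, 11 genes, 6 of them protein-coding, had at most 4 counts in any of the 6 libraries. The same 6 protein-coding genes had 388.5 to 7602 TPM in nucleoplasm and 98.81 to 2478 TPM in cytoplasm, so the counts of that stretch do not show their level.

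A few genes differed between the cytoplasm libraries far more than the rest. They were picked after their values were seen, as genes with 20 CPM or more in the highest cytoplasm library and a highest value over 5 times the lowest. They number 13 of 8174, and the median ratio over the 8174 was 1.12. Of the 13, 3 lie on the Y chromosome. The other 10 (Gm15564, Il31ra, Lars2, Gphn, Gm24270, Gm24187, Gm23935, mt-Rnr1, Peak1 and Cmss1) were all lowest in cytoplasm library 2 and highest in library 3. Among them are 3 genes of 57 bases annotated as microRNAs, whose sequences (GENCODE vM21, mm10) are shown because 2 of them are the same. Gm23935 lies at chr16:11144125-11144181 on the plus strand, Gm24270 at chr9:56223715-56223771 and Gm24187 at chr13:9834469-9834525 on the minus strand, and the capital marks the base at which Gm24187 differs.
Gm23935: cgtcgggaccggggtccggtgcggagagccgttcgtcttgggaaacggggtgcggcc
Gm24270: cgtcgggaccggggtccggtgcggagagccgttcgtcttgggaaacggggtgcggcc
Gm24187: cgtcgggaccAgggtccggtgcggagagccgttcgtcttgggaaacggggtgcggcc
Counted from the 5' end of Gm23935, the difference is G11A (98.2% identity). Reads of 100 bp that match 1 of them can match the others, so their counts cannot be told apart with certainty. Gm23935 lies within Zc3h7a on its opposite strand and Gm24270 within Peak1 on its own strand.

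Gm23935 had 28.3, 14.6 and 7.92 CPM in nucleoplasm and 1934, 92.4 and 2029 CPM in cytoplasm (log2 fold change -6.32 ± 1.06 SE, edgeR adjusted p = 1.1e-05). All 3 cytoplasm libraries were above all nucleoplasm libraries, with library 2 nearest to them. Gm24270 had a log2 fold change of -6.57 and Gm24187 one of -8.54, or of -5.24 and -7.00 without cytoplasm library 3. Lars2, the mitochondrial leucyl-tRNA synthetase gene, had 36.7, 29.6 and 32.2 CPM in nucleoplasm and 439.2, 17.1 and 2784 CPM in cytoplasm, so that cytoplasm library 2 lay below nucleoplasm. The Lars2 log2 fold change was -5.04 (edgeR adjusted p = 1.36e-05), and -2.80 without cytoplasm library 3. Il31ra, a cytokine receptor gene, had 3.67, 1.54 and 3.23 CPM in nucleoplasm and 177.9, 4.44 and 954.5 CPM in cytoplasm (-7.07, and -5.01 without cytoplasm library 3), while its TPM was at most 0.38 on average in either fraction. Cmss1, a gene with 72.2% of its span overlapped on the other strand, had 406.1, 321.8 and 191.4 CPM in nucleoplasm and 6241, 1103 and 8724 CPM in cytoplasm. It averaged 3.11 TPM in nucleoplasm and 3.51 TPM in cytoplasm, so that its fold was far smaller by TPM. Counts cover whole spans, so the CPM of Lars2, Il31ra and Cmss1 need not be those of their mRNAs. Why these genes varied together between the cytoplasm libraries was not tested.

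**Figure D4:**
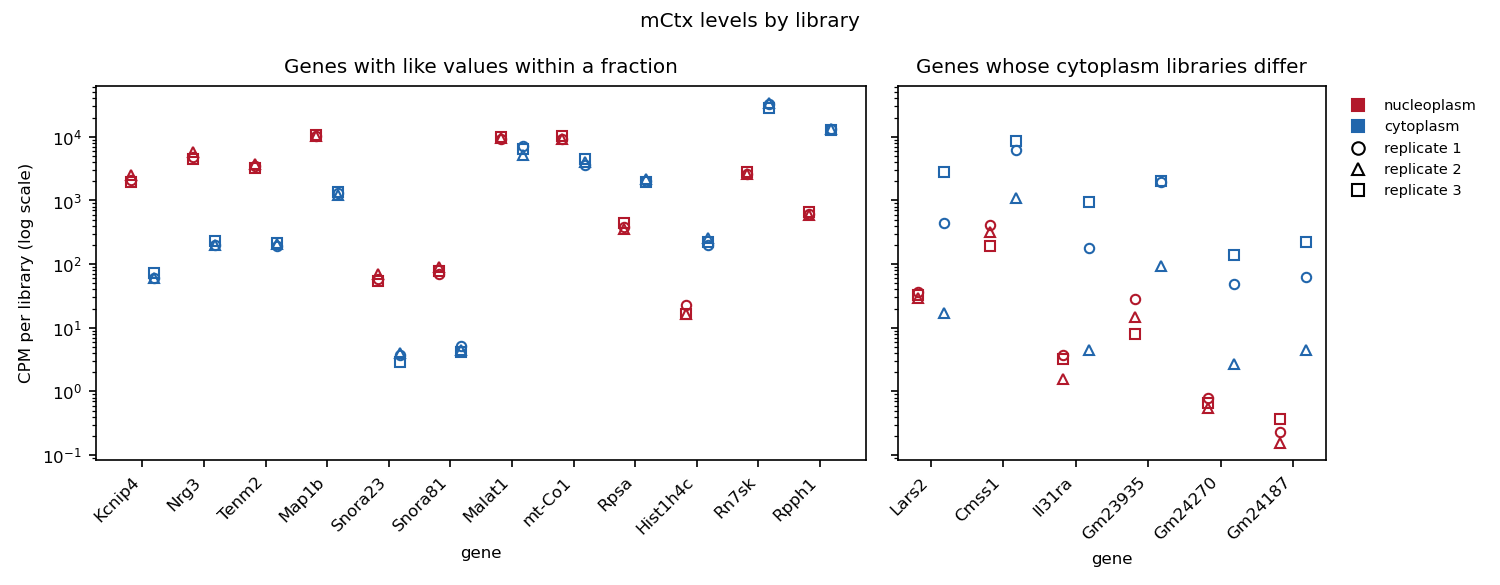
CPM on a log scale (vertical axis) of named genes in the 3 nucleoplasm (red) and 3 cytoplasm (blue) mCtx libraries, with a symbol per replicate number. Left, genes whose libraries of a fraction are alike, such as Kcnip4 at 1928 to 2550 CPM in nucleoplasm and 60.0 to 72.3 CPM in cytoplasm. Right, genes whose cytoplasm libraries differ, with library 2 lowest, such as Lars2 at 17.1 to 2784 CPM in cytoplasm.

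The nucleoplasm-to-cytoplasm ratio of mCtx was then compared with that of mESC and mNPC, as a difference of log2 fold changes in the same fit. Against mESC, 8329 genes differed (45.8%), of which 3748 (20.6%) had a higher and 4581 (25.2%) a lower ratio in mCtx. Total-count scaling gave 1651 higher and 7339 lower, DESeq2 4813 and 3935, and rescaled TPM 6445 and 3121. Against mNPC, 6885 genes differed (37.8%), 3257 (17.9%) higher and 3628 (19.9%) lower in mCtx, with 2394 and 4457 under total-count scaling and 5407 and 2934 by rescaled TPM. The count splits are therefore read only beside the lists, and the lists' medians beside those of all genes, 0.00 in mCtx, 0.09 in mESC and 0.00 in mNPC.

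Of the gene lists, the mitochondrial one had the largest differences by median. They took 2.12% ± 0.157 of all counts in mCtx nucleoplasm and 1.19% ± 0.368 in mCtx cytoplasm, against 29.1% and 0.288% in mESC and 11.1% and 0.164% in mNPC (means, n = 3 each). The ratio was lower in mCtx for 28 of 29 tested genes against mESC and for 28 against mNPC, with list medians of 1.20 in mCtx, 7.24 in mESC and 5.94 in mNPC. Of the mitochondrial genes, mt-Tw, a transfer RNA gene, had 28.5 CPM in nucleoplasm and 0.0554 CPM in cytoplasm of mESC on average, where mCtx had 21.9 and 17.5 CPM (log2 difference of ratios -8.45 ± 0.60 SE, edgeR adjusted p = 1.27e-11). mt-Rnr2 averaged 7197 and 3962 CPM in mCtx and 60560 and 376.5 CPM in mNPC (-6.47 ± 0.64 SE, edgeR adjusted p = 8.23e-09).

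Secretory-pathway mRNAs had a lower ratio in mCtx for all 35 genes tested, against mESC and against mNPC alike. None was higher in mCtx with DESeq2, the other scalings of the counts or rescaled TPM, and 34 or 35 were lower in each. The list medians were -0.28 in mCtx, 2.60 in mESC and 1.59 in mNPC. Hspa5 averaged 462.7 and 211 CPM in mCtx nucleoplasm and cytoplasm, against 1041 and 65.1 CPM in mESC and 1299 and 148 CPM in mNPC (difference -2.87 ± 0.26 SE against mESC and -2.00 ± 0.26 SE against mNPC, edgeR adjusted p = 1.27e-09 and 6.92e-07). Canx and Calr differed by -2.54 and -2.84 from mESC. As lists, secretory and mitochondrial transcripts thus had a lower nucleoplasm-to-cytoplasm ratio in mCtx than in the lines. Place in the cell and the make-up of the fractions cannot be told apart here. Most cytosolic ribosomal protein and nuclear oxidative phosphorylation genes also had a lower ratio, as given next, and a shared cause was not tested.

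Ribosomal protein mRNAs had a lower ratio in mCtx for 75 of 85 genes against mESC and for 48 against mNPC, with 2 higher (list medians -2.24 in mCtx, -0.92 in mESC and -1.59 in mNPC). Of 80 nuclear oxidative phosphorylation genes, 59 were lower against mESC and 59 against mNPC, with 7 and 3 higher. Nuclear pore and export genes had a higher ratio in mCtx for 31 of 41 genes against mESC and 19 against mNPC, with 3 lower in each, and with total-count scaling for 18 against mESC, with 6 lower. Of 28 hnRNP genes, 12 were higher and none lower against mESC, where total-count scaling turned the median difference of 0.44 to -0.16, and 17 were higher and none lower against mNPC. Of 37 neural RNA-binding protein genes, 17 were higher and none lower against mESC, where total-count scaling turned the median of 0.52 to -0.08, and 21 were higher and none lower against mNPC. Of the clustered protocadherins, none had a higher and 2 a lower ratio in mCtx than in mESC by counts (median difference -0.07), whereas all 22 tested were higher by rescaled TPM (0.74). They were lower in mCtx than in mNPC for all 23 genes, with medians of 0.93 in mCtx and 3.86 in mNPC, whereas by rescaled TPM 15 of 22 were lower and 2 higher. Pcdhgc4 averaged 919.2 and 382.8 CPM in mCtx nucleoplasm and cytoplasm, and 3504 and 399.5 CPM in mNPC (-1.87 ± 0.17 SE, edgeR adjusted p = 2.18e-09).

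The genes named for the largest rises in ratio against mESC were Pde4d, Kif1a, Cltc, Enox1 and Snrnp200. Cltc averaged 1112 and 167.1 CPM in mCtx nucleoplasm and cytoplasm, and 599.6 and 883 CPM in mESC, so that the order of the fractions was opposite (difference 3.29 ± 0.21 SE, edgeR adjusted p = 2.45e-12). Snrnp200 was alike, with 287.7 and 77.8 CPM in mCtx and 288.6 and 643 CPM in mESC (3.04 ± 0.24 SE, edgeR adjusted p = 7.18e-11). Kif1a differed by 3.34 from mESC and by -0.25 from mNPC, where the second did not pass the test (edgeR adjusted p = 0.817). Map1b differed by 2.98 from mESC and 1.45 from mNPC. Pde4d, a cyclic AMP phosphodiesterase, had 334.5 and 65.3 CPM in mCtx and 209.8 and 446.2 CPM in mESC (3.44 ± 0.16 SE, edgeR adjusted p = 1.34e-14). Among genes with 10 CPM or more in both cell types, the largest rises against mNPC were in Macrod2 (3.99), Fgf14 (3.88), Grip1 (3.75), Gmds (3.67) and Dab1 (3.37), genes of 519134 to 1997658 bases.

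Rn7sk and Malat1 had a lower ratio in mCtx than in both lines. Of 11 nuclear long noncoding RNAs, Malat1 among them, none had a higher and 4 a lower ratio in mCtx against mESC, and 2 had a higher and 1 a lower ratio against mNPC. Rn7sk averaged 2674 and 31670 CPM in mCtx nucleoplasm and cytoplasm, against 13320 and 15640 CPM in mESC and 27520 and 39020 CPM in mNPC. The ratio was thus lower in mCtx, by -3.33 ± 0.38 against mESC and -3.06 ± 0.38 against mNPC (SE, edgeR adjusted p = 4.47e-08 and 2.86e-07). Malat1 averaged 9501 and 6208 CPM in mCtx, 6645 and 1366 CPM in mESC and 7896 and 1397 CPM in mNPC. Its ratio in mCtx was lower by -1.67 and -1.89. Genes of 100 kb or more took 43.3% of the counts of nuclear genes in mCtx nucleoplasm and 18% in mCtx cytoplasm, against 17.5 and 9.59% in mNPC and 12.1 and 8.47% in mESC.

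**Figure D5:**
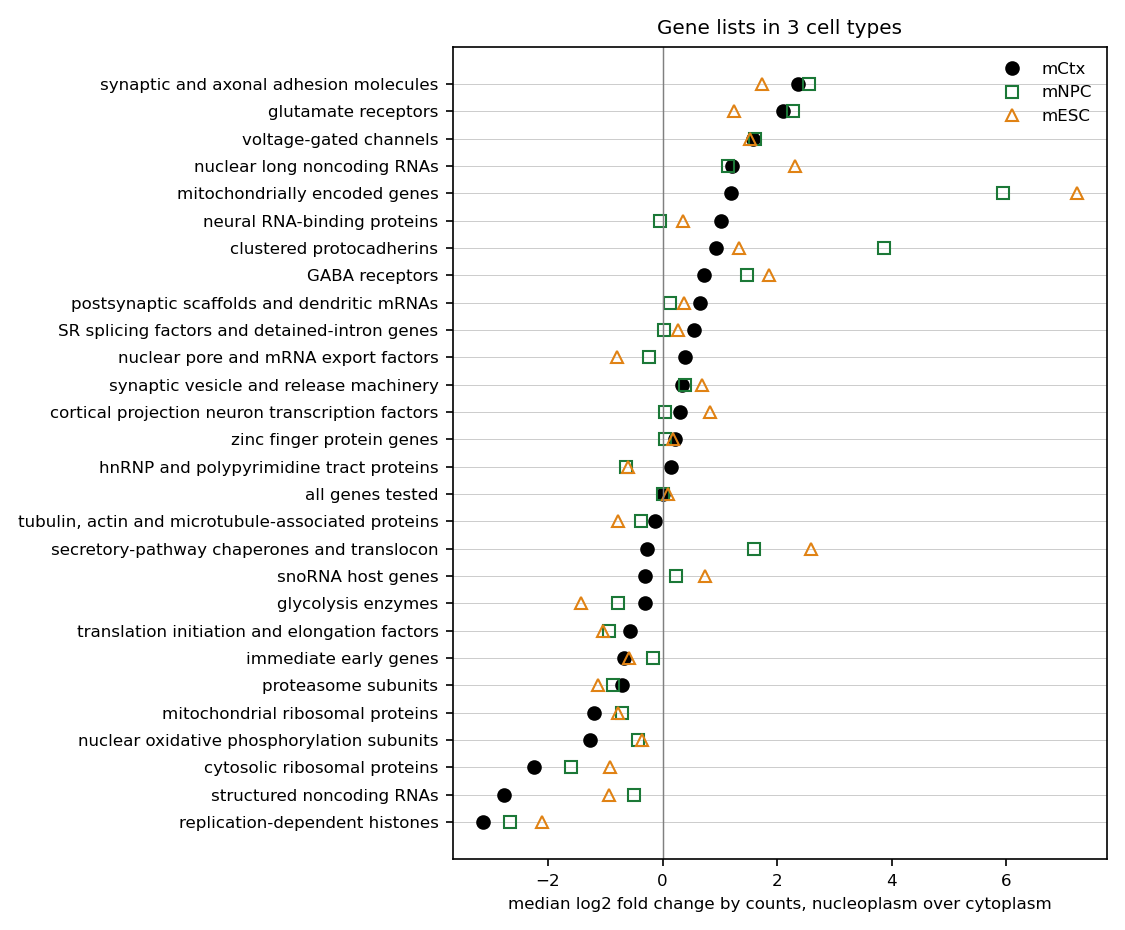
Median log2 fold change by counts (nucleoplasm over cytoplasm, horizontal axis) of the members of 27 gene lists and of all genes tested, in mCtx (circles), mNPC (squares) and mESC (triangles). Mitochondrially encoded genes stand at 1.20 in mCtx, 5.94 in mNPC and 7.24 in mESC, and secretory-pathway genes at -0.28 in mCtx (0.15 by rescaled TPM), 1.59 in mNPC and 2.60 in mESC.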

How the data were processed

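The authors deposited whole-number read counts per gene and, in another table, TPM per gene, for 27 libraries. STAR, featureCounts, kallisto and mm10 are named per the submitters' processing notes, with no versions or roles. Strand setting and the handling of reads that match several places are not given in the sources used here. The deposited count columns of the chromatin libraries are recorded with expected count as their unit, since their abbreviation is also a word for position, but their values are whole like the others.

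Members and gene lists were chosen with earlier results of these data known, so list counts describe and do not test. Gene IDs were looked up in GENCODE vM21 for names and biotypes (35533 of 37332 matched). All 27 libraries were fitted in edgeR 4.0.16 (R 4.3.3), 1 coefficient for each of 9 groups, with trimmed-mean scaling over genes outside the mitochondrial genome, the default low-count filter (18192 genes) and the quasi-likelihood test (18 residual degrees of freedom), with Benjamini-Hochberg adjustment at 0.05. TPM were tested in limma 3.58.1 as log2(TPM + 1), with a pseudocount of 1, a filter at 1 TPM, and again after rescaling by the median ratio; fold changes on that scale understate those of low genes. DESeq2 1.42.0 was an alternative, with those of the closing section. Figures used matplotlib 3.10.9. Scripts were tested on simulated data. In mESC, same-numbered nucleoplasm and cytoplasm libraries deviated together (r = 0.75, 0.49 and 0.68) and look paired from the data, since the labels do not say so. The fit had no replicate block, so the tests of the ratio against mESC ignore that pairing. A block, set for every cell type alike, was an alternative.

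Replicates differed from each other by more than counting noise (chi-square per degree of freedom 3.12 to 24.1). Named genes were the 10 largest fold changes in each direction by counts and by TPM at a mean of 10 CPM or 10 TPM with non-overlapping libraries (for counts) or calls on both scales, up to 4 members of each list by level, the 5 largest ratio differences in each direction, and a fixed set of well-known genes. Not all of the 194 genes are printed, some are not reported here, and genes picked otherwise are said to be. Standard errors are those of the fitted log2 fold change. Intervals over reads were not computed, since reads are not independent molecules.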

Additional observations from a re-analysis of the deposited data

Results flagged for a closer look

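The results below were picked out because the nucleoplasm-to-cytoplasm ratio differed between mCtx and a line by the test of that difference (edgeR, adjusted p at or under 0.05). Against mESC, 8329 genes differed, 3748 higher and 4581 lower in mCtx. Against mNPC, 6885 differed, 3257 higher and 3628 lower.

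The named rises against mESC were Pde4d (3.44 on the log2 scale), Kif1a (3.34), Cltc (3.29), Enox1 (3.20) and Snrnp200 (3.04). The named falls against mESC were mitochondrial, with mt-Tw at -8.45, mt-Ti at -7.71, mt-Rnr1 at -7.40, mt-Nd6 at -6.96 and mt-Tm at -6.13. mt-Ti averaged 12.8 CPM in mCtx nucleoplasm and 11.8 CPM in mCtx cytoplasm, and 10.6 and 0.0377 CPM in the same fractions of mESC, so that the cytoplasm value, near the floor in mESC, set the difference. mt-Tw, mt-Ti and mt-Tm have 67 to 69 bases, so their reads may be of longer RNAs. Enox1, an oxidase gene, averaged 600.7 CPM in mCtx nucleoplasm and 76.2 CPM in mCtx cytoplasm, and 82.5 and 96.3 CPM in mESC.

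Against mNPC, the named rises were Macrod2 (3.99), Fgf14 (3.88), Grip1 (3.75), Gmds (3.67) and Dab1 (3.37). Dab1, the adaptor of reelin signalling, averaged 1860 CPM in mCtx nucleoplasm and 204.1 CPM in mCtx cytoplasm, and 31 and 35.2 CPM in mNPC. The named falls against mNPC were mt-Rnr1 (-8.32), mt-Rnr2 (-6.47), Gm23935 (-6.06), mt-Tw (-5.92) and Il31ra (-5.65). Gm23935, Il31ra and mt-Rnr1 are among the genes whose mCtx cytoplasm libraries differed over 5 times from each other, with library 2 lowest.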

How the results depend on the processing

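The 3 comparisons gave 10634 (nucleoplasm against cytoplasm in mCtx), 8329 (ratio against mESC) and 6885 calls (ratio against mNPC). Leaving out 1 library gave 9798 to 10012, 7751 to 7857 and 6242 to 6447. For nucleoplasm against cytoplasm, the calls became 16704 by TPM without a filter and 3632 at a fold limit of log2 1. Higher genes numbered 11350 with log2(TPM + 1), 10937 with log2(TPM + 0.1), 15878 without the TPM filter and 2298 at the fold limit. Lower genes numbered 822, 725, 826 and 1334 under those settings and 3288 with rescaled TPM. For the ratio against mESC, TPM without a filter gave 14868 calls (12974 higher, 1894 lower), the fold limit 3258 (1005 higher, 2253 lower) and total-count scaling 1651 higher and 7339 lower. Higher genes were 10265 with log2(TPM + 1), 9404 with log2(TPM + 0.1) and 6445 rescaled, and lower ones 1187 and 1241 with the first 2. For the ratio against mNPC, log2(TPM + 1) gave 12595 calls (12236 higher, 359 lower), log2(TPM + 0.1) 12024 (11721 higher, 303 lower), no TPM filter 15696 (15262 higher, 434 lower), the fold limit 2044 (657 higher, 1387 lower) and rescaled TPM 5407 higher. The fold limit asks more of each gene, and for the rest the cause was not tested. The count share of genes spanning 100 to 300 kb differed by 10.1 percentage points when mitochondrial counts were kept, against 10.4.

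Reversed single genes were Actb (0.16 by TPM at either pseudocount and unfiltered), Gabbr1 (0.75, 0.76 and 0.75), Syt4 (0.68, 0.69 and 0.68), Mrps6 (-0.33, -0.35 and -0.33, rescaled -0.98), Snhg3 (-0.48, -0.62 and -0.48, rescaled -0.99) and Il31ra (0.33 unfiltered, also 0.33 for its ratio against mNPC). Of the other values of named genes under all settings, 2170 were called or not called as in the main fit, 52 lost the call and 52 gained it. The 2170 include any change of sign where neither setting gave a call. List counts stayed within 1.5 times in 1073 of 1330 cases.

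The labels number the replicates alike in both fractions without saying that a number marks a shared culture. In mCtx, deviations of same-numbered nucleoplasm and cytoplasm libraries correlated at 0.0069, -0.022 and 0.086, and in mNPC at 0.24, -0.048 and 0.037, so these were not taken as paired, though in mCtx Xist and Y-linked genes followed the numbers in both fractions. The replicate block gave 11754, 9527 and 8238 calls, and it moved no total by over 1.5 times. Depth limits low genes: those under the filter were not tested.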
